A study of Mus musculus with 11 samples.

Results

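The Sctr to Marco domain is a 560 kb interval of mouse chromosome 1, positions 121910001 to 122470000 in build mm9, that lies immediately left of the domain of the gene En1. Its members are the 1596 pairs of 10 kb bins with both bins inside the interval, 1.81% of the 88410 bin pairs of a map that spans 120200001 to 124400000. The interval and its weak internal minimum at 122050001 had been chosen from insulation values of these same maps, so the strength of the domain's ends and of that minimum is given as a description. Bin pairs less than 30 kb apart were left out of all values below unless stated, which left 1431 bin pairs.

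Contacts came from capture Hi-C, in which crosslinked chromatin is cut with DpnII, religated and enriched with custom baits for one region, so that each read pair records that a pair of loci were in contact. Each of the 4 groups was represented by 1 merged map from embryos of embryonic day 9.5 (E9.5). The groups were wild-type forelimb (3 libraries), wild-type forebrain (3 libraries), wild-type midhindbrain boundary (3 libraries) and forelimb of a mutant with a stop cassette insertion (2 libraries). The strain field is c57bl6.J X 129S6.sv for all 11 libraries, whereas CD1 appears as a tag in the titles of only the 3 libraries from wild-type forelimb. The titles of the mutant libraries carry the tag 3xpA, and the labels give neither the position of the cassette nor the number of its copies in an embryo. The wild-type forelimb map thus differed from the other 3 maps in a title tag, and tissue, genotype and that tag cannot be told apart in its comparisons. Tissue identity could not be checked from contacts between DNA loci. The tissues are mixtures of cells, so a contact made in more cells and a contact made more often per cell cannot be told apart.

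A topologically associating domain is a stretch of chromatin whose loci meet each other more often than they meet loci beyond its ends. Cohesin is known to form such domains by extruding loops that halt at bound CTCF, and loci at the bases of a loop appear in a contact map as a spot away from the diagonal. A partial boundary inside a domain appears as a position that few contacts cross. In the RefSeq gene order (assembly GRCm38.p6, used for names and order only), 6 protein-coding genes lie between Sctr, the secretin receptor, and En1, a homeodomain transcription factor of limb and midbrain-hindbrain patterning. They are Tmem37, Dbi, 3110009E18Rik, Steap3, C1ql2 and Marco. Dbi encodes an acyl-CoA-binding protein, Steap3 an endosomal reductase used in iron uptake, C1ql2 a secreted C1q-domain protein and Marco a scavenger receptor of macrophages. Positions of these genes in the build of the maps were not used here, so contacts are described by bin and not by gene.

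At all distances together, the domain held 876196 contacts in wild-type forelimb, 958356 in the forebrain, 958192 at the midhindbrain boundary and 847052 in the stop-cassette map. These were 9.93%, 10.1%, 10.1% and 11.1% of all contacts of the respective maps. At 30 kb or more, the median bin pair of the domain had 249, 232, 227 and 195 contacts in the same order, and no bin pair was empty. Because libraries were merged, every interval below is a 95% counting interval from the Poisson error of the contacts and covers no spread between embryos or libraries. Read pairs need not be independent molecules, so the true counting error may be larger. Levels are given as observed over expected: the signal after Knight-Ruiz (KR) balancing, which gives all bins the same total, divided by its mean over all bin pairs of that map at the same distance. A level of 1 is the average of the region at that distance.

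In all 4 maps the mean level inside the domain was above the average of the region, and its 2 ends were unequal. The mean level inside was 1.14 in the wild-type forelimb (1.139 to 1.147), 1.13 in the forebrain, 1.12 at the midhindbrain boundary and 1.15 in the stop-cassette map (1.143 to 1.153). The right end, toward En1, was the sharper one. There the log2 insulation score, the mean signal in a 200 kb square across an edge relative to the map, was -1.05 in the wild-type forelimb, -0.94 in the forebrain, -0.99 at the midhindbrain boundary and -0.94 in the stop-cassette map. The left end scored only -0.27, -0.26, -0.23 and -0.28. At the weak minimum, 140 kb from the left end, the score was -0.31, -0.35, -0.36 and -0.21. The minimum was therefore lower than the left end in the 3 wild-type maps and higher than it in the stop-cassette map. With a boundary defined as a score at least 0.2 below its surroundings, the forelimb maps had theirs at 121910001, with depths of 0.20 and 0.32, and both brain maps had theirs at 122050001, with depths of 0.27 and 0.25. The wild-type forelimb depth sits at that threshold.

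The bins on either side of the chosen ends show the same asymmetry. The first bin of the domain, 121910001, had a mean level with the domain of 0.921 in the wild-type forelimb, and the bin just outside it had 0.889. In forebrain they had 0.877 and 0.851. The outer bin was slightly above the first bin inside in midhindbrain boundary, at 0.854 against 0.849, and in stop-cassette forelimb, at 0.975 against 0.963. At the right end, the last bin, 122460001, had 1.11, 1.14, 1.11 and 1.15 in the 4 maps, and the bin just outside fell to 0.719, 0.639, 0.625 and 0.633. So the left end was a gradual change and the right end a step.

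Of the contacts at 30 kb or more with an end in the domain, the larger part left it. The limit matters, since the wild-type forelimb map held 876196 contacts inside at all distances and 435820 at 30 kb or more. Shares at all distances were not computed. A contact inside has both ends in the domain but entered these shares as a single contact. Counted by ends, the share inside would be larger, and it was not computed. The share that stayed inside was 35.8% of raw contacts in the wild-type forelimb map (95% Wilson interval 35.7 to 35.9), 35.8% in the forebrain, 35.7% at the midhindbrain boundary and 35.3% in the stop-cassette map (35.2 to 35.4). In KR signal the shares were 35.5%, 35.9%, 35.8% and 34.1%, the stop-cassette share again being the lowest. The direction of the contacts that left the domain differed as well. In stop-cassette forelimb 32.6% ran to the left and 32.0% to the right, against 29.4% and 34.8% in wild-type forelimb. In midhindbrain boundary 28.0% ran to the left and 36.3% to the right. The level of the domain with the interval on its left (121360001 to 121910000) was 0.790 in stop-cassette forelimb and 0.710 in the wild-type forelimb, a log2 difference of 0.15 (0.14 to 0.17). With the En1 domain on its right (122470001 to 123080000) the level was 0.815 in stop-cassette and 0.870 in the wild-type forelimb, a log2 difference of -0.09 (-0.10 to -0.08). Both differences kept their direction with raw counts, at 0.22 and -0.04.

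**Figure D1:**
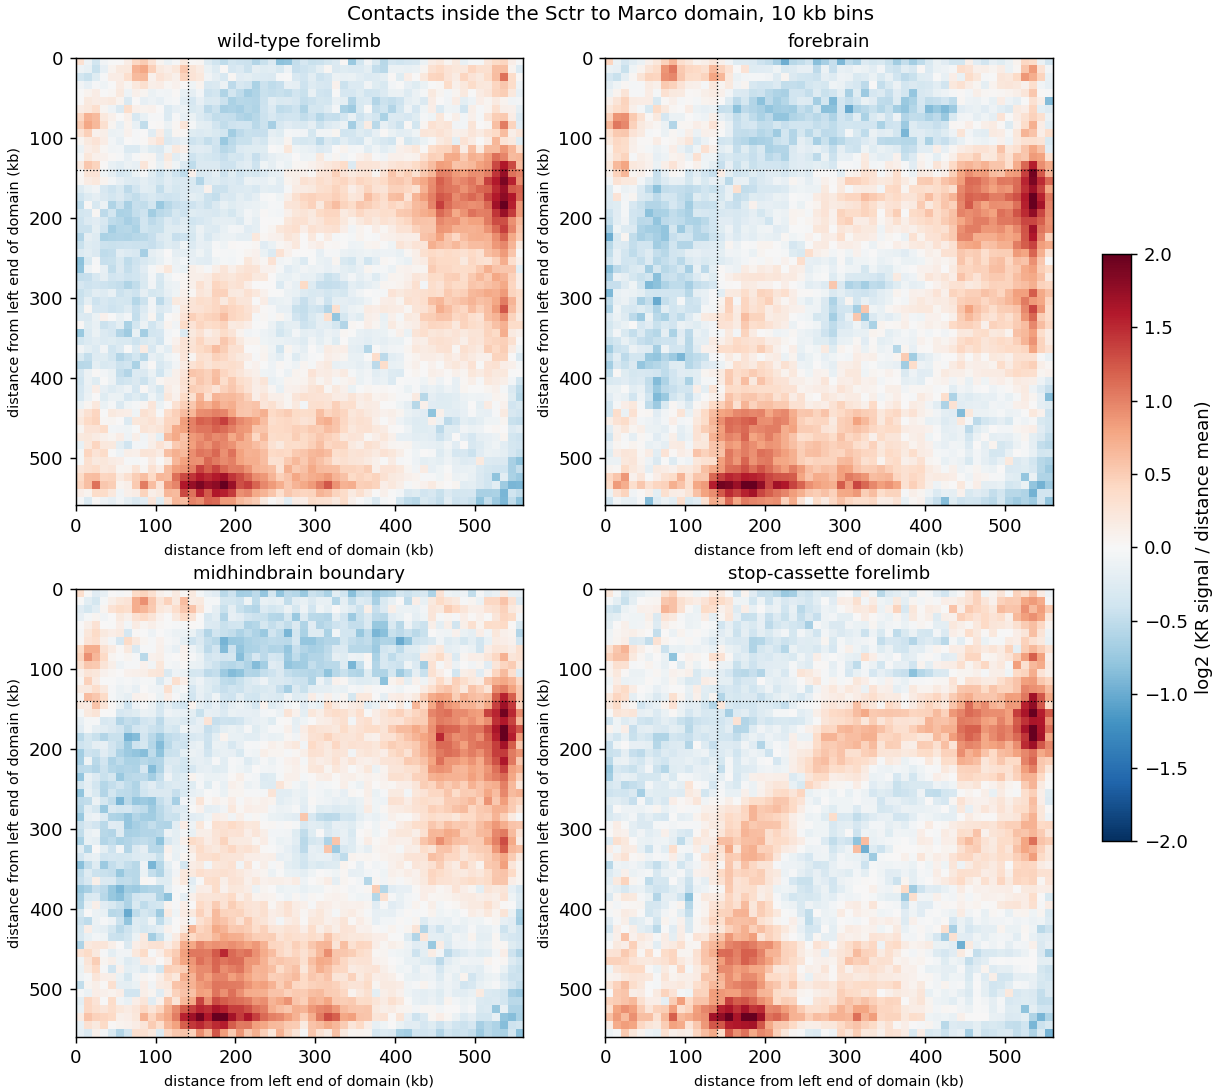
Levels of all bin pairs of the domain in the 4 merged maps, as log2 of KR signal over the distance mean (colour), with both axes in kb from the left end and a dotted line at the weak minimum 140 kb from it. In every map the darkest spot joins the bins just right of the dotted line with a narrow stripe near the right end, where the strongest bin pair reached levels of 4.18 to 4.69.

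The weak minimum divided the domain into a left part of 14 bins (140 kb) and a right part of 42 bins (420 kb), and the right part held the strong structure. Inside the right part the mean level was 1.28 in the wild-type forelimb, 1.3004 in the forebrain, 1.29 at the midhindbrain boundary and 1.24 in the stop-cassette map. Inside the left part it was 1.09, 1.202, 1.14 and 1.06. Between the parts it was 0.966, 0.902, 0.898 and 1.04, so only the stop-cassette map lay above the regional average there. The excess inside the right part came from long distances. At 30 to 100 kb the right part had levels of 0.974, 0.979, 0.974 and 0.995, close to the region. At 310 to 400 kb they reached 2.27, 2.32, 2.27 and 2.21, over 65 bin pairs that join its 2 flanks.

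The strongest contacts of the domain all joined the bins at the weak minimum with 1 place near the right end. At 50 kb or more, 7 bin pairs had a level of 3 or more in all 4 maps, 0.528% of the domain's 1326 such pairs, against 0.326% of the 35280 pairs of the region up to 1 Mb. Of these 7 pairs, 6 joined the bin 122440001 with the consecutive bins 122050001 to 122100001, and 1 joined 122430001 with 122080001. The threshold of 3 was chosen after the data were seen. Shares of the domain and of the region are not matched for distance here, since the domain's pairs end at 550 kb. Pairs also needed at least 20 contacts in each map. At a level of 2 or more in all maps there were 35 pairs, 33 of them inside the right part. These 35 were 2.64% of the domain's pairs, where the region had 1.68%.

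The highest pair joined 122090001 with 122440001, 350 kb apart. It had 409 contacts in wild-type forelimb, 428 in the forebrain, 411 at the midhindbrain boundary and 363 in the stop-cassette map. Its levels were 4.18 (3.77 to 4.58), 4.69 (4.25 to 5.14), 4.67 (4.22 to 5.12) and 4.53 (4.06 to 4.99), and all 4 intervals overlap. The next pair by the naming rule, 122060001 with 122440001, had levels of 3.69, 3.68, 3.80 and 3.99, with intervals that overlap as well.

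The rectangle around the 7 pairs, bins 122050001 to 122110000 against 122430001 to 122450000, held 12 bin pairs, 330 to 390 kb apart. Its mean level was 3.22 in the wild-type forelimb (3.13 to 3.32), 3.32 in the forebrain, 3.23 at the midhindbrain boundary and 3.31 in the stop-cassette map (3.20 to 3.42). The log2 ratio of stop-cassette over wild-type forelimb was 0.04 (-0.03 to 0.10), and that of wild-type forelimb over forebrain was -0.04 (-0.10 to 0.02). Wild-type forelimb over midhindbrain boundary gave -0.0045 (-0.066 to 0.057), and midhindbrain boundary over forebrain gave -0.04 (-0.10 to 0.03). In KR signal over the distance mean all 4 intervals included 0. Other scalings did not keep this: with raw counts wild-type forelimb was above forebrain by 0.08 (0.03 to 0.14) and above midhindbrain boundary by 0.10 (0.04 to 0.16). With the distance median, wild-type forelimb was above midhindbrain boundary by 0.07 (0.01 to 0.13) and midhindbrain boundary was below forebrain, at -0.11 (-0.17 to -0.04). Stop-cassette over wild-type forelimb included 0 under these 3 scalings, at 0.04, 0.05 and -0.02. The rectangle was chosen for high levels in every map, which favours equal values.

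Seen from the bin 122440001, contacts changed abruptly between 122030001 and 122040001, 1 bin left of the minimum. The bin's mean level over the domain was the highest of all 56 bins, at 1.77 in the wild-type forelimb, 1.89 in the forebrain, 1.78 at the midhindbrain boundary and 1.76 in the stop-cassette map. Moving leftward from it, levels stayed near 1 at first, reached a first peak at 122220001 (2.36, 2.52, 2.47 and 2.15) and reached their maximum at 122090001. At 122040001, the last bin left of the minimum, they were 3.04, 2.96, 2.89 and 3.19. One bin further left, at 122030001, they were 1.98, 1.81, 2.02 and 1.88. Over the left part the median level with this bin was still 1.49, 1.47, 1.36 and 1.61. The bins with the lowest means lay in the left part: 121970001 had 0.863, 0.796, 0.792 and 0.904, and 121960001 and 122010001 came next.

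**Figure D2:**
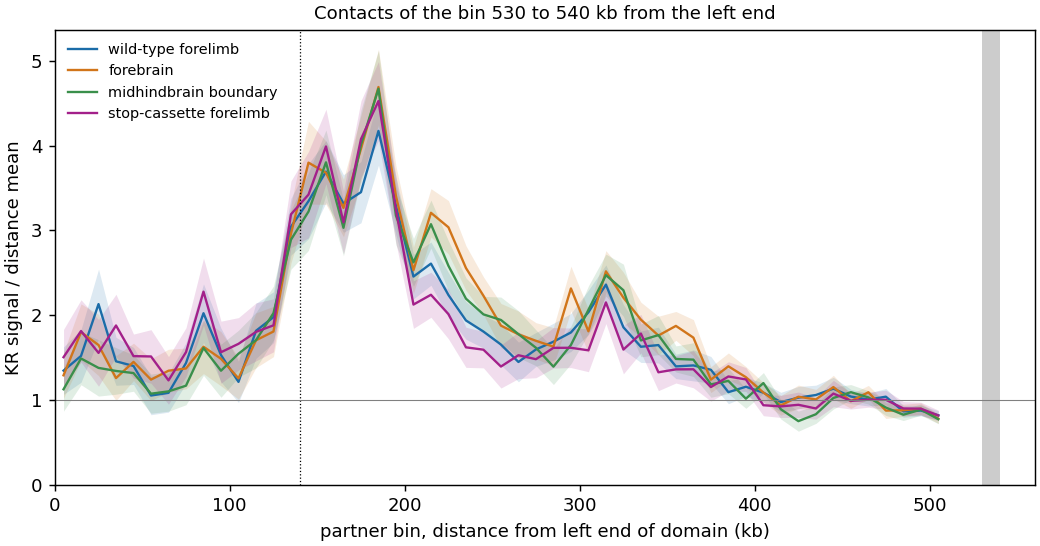
Level of the bin 530 to 540 kb from the left end (grey bar) with every other bin of the domain at 30 kb or more, per map, as KR signal over the distance mean with 95% counting bands, against the partner's distance from the left end in kb. The 4 lines climb to between 4.18 and 4.69 at 180 kb and drop left of the weak minimum (dotted line) from about 3 to 2 within 1 bin.

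At some named pairs away from this rectangle the counting intervals of the maps did separate. At 122120001 with 122440001, 320 kb apart, the level was 2.61 in wild-type forelimb (2.35 to 2.86) and 3.21 in the forebrain (2.92 to 3.49). In midhindbrain boundary it was 3.07 (2.79 to 3.36) and in stop-cassette forelimb 2.24 (1.98 to 2.51). The brain maps were thus above the stop-cassette map, with intervals that do not overlap, and the wild-type forelimb map lay between them. The wild-type forelimb interval was also below that of forebrain, and it overlapped those of midhindbrain boundary and stop-cassette forelimb. The tests of single bin pairs described below did not compare a brain map with the stop-cassette map, so that difference was not tested. This pair was not called in the comparisons that were run. A call needed a 2-fold difference, which levels of 2.24 to 3.21 do not reach. Without that requirement the exact binomial test also gave it no adjusted p under 0.05 in those comparisons. The intervals above are for single pairs and are not adjusted for the number of pairs. For 122090001 with 122360001 the levels were 2.60, 2.34, 2.86 and 2.27, and the midhindbrain boundary interval (2.62 to 3.10) lay above those of forebrain (2.13 to 2.55) and stop-cassette forelimb (2.05 to 2.50). That pair, too, had no adjusted p under 0.05 in the exact binomial test, with or without the 2-fold requirement. A further 2 high pairs by the rule had levels of about 2 with overlapping intervals in all maps: 122060001 with 122360001 at 2.29, 2.19, 2.07 and 2.200, and 122080001 with 122400001 at 2.21, 2.04, 2.11 and 2.09.

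The 4 lowest pairs by the same rule crossed the minimum. The pair 121970001 with 122090001, 120 kb apart, had 161, 163, 123 and 145 contacts and levels of 0.638, 0.665, 0.527 and 0.662, with overlapping intervals in all maps. The pair 121960001 with 122280001 had levels of 0.665, 0.596, 0.533 and 0.807, the stop-cassette map being the highest. The pair 121910001 with 122130001 had levels of 0.664, 0.507, 0.696 and 0.598, and 122010001 with 122100001 had 0.689, 0.640, 0.546 and 0.668. The corner pair that joins both ends of the domain, 550 kb apart, had only 31 to 42 contacts and levels of 0.986, 0.769, 0.893 and 0.937.

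Contacts across the weak minimum were measured in a 100 kb square, with the levels of 97 bin pairs that join up to 100 kb on its sides. The log2 level was -0.39 in the wild-type forelimb (-0.41 to -0.37), -0.43 in the forebrain (-0.45 to -0.41), -0.42 in midhindbrain boundary (-0.44 to -0.40) and -0.26 in the stop-cassette map (-0.28 to -0.25). The stop-cassette map was the highest, by 0.13 over wild-type forelimb (0.10 to 0.15). That difference was 0.34 with raw counts, and with a 50 kb square it was 0.04, with an interval of -0.01 to 0.09 that includes 0. Wild-type forelimb exceeded forebrain by 0.04 (0.01 to 0.07), and it differed from midhindbrain boundary by 0.02, with an interval of -0.003 to 0.050 that includes 0. The lowest edge was at 122050001 in the forelimb maps and 1 bin to the right, at 122060001, in the brain maps, but there the level differed from that at 122050001 by only 0.006 and 0.003, less than the counting SDs of 0.0098 and 0.0099. With raw counts in place of KR signal the 3 wild-type values stayed below 0 and the stop-cassette value became 0.0087, so in raw counts the minimum was not below the regional average in that map. It was still below the domain's own log2 mean level in raw counts, which was 0.43 in the stop-cassette map.

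The same square, moved edge by edge, showed a second dip inside the right part, at a higher level than the weak minimum in each map. From the minimum the log2 level rose to a maximum at 122150001 or 122160001 of 0.21 in the wild-type forelimb, 0.17 in the forebrain, 0.13 at the midhindbrain boundary and 0.37 in the stop-cassette map. It then fell to -0.05, -0.03, 0.02 and -0.14 at 122220001 or, in the stop-cassette map, 122230001. The drop from that maximum to that dip was 0.26, 0.20, 0.11 and 0.51, and so the largest in the stop-cassette map. A further maximum followed at 122300001 or 122310001, at 0.25, 0.25, 0.29 and 0.17, and from the dip to this maximum the rise was 0.30, 0.28, 0.26 and 0.31. At its largest, the stop-cassette map exceeded wild-type forelimb by 0.17 at 122160001 (0.14 to 0.19). The lowest difference was -0.14 at 122260001 (-0.17 to -0.12). With raw counts the difference at 122160001 was 0.38, and at 122260001 it was 0.0024. Squares within 100 kb of the domain's ends are cut off by the ends and hold fewer bin pairs.

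**Figure D3:**
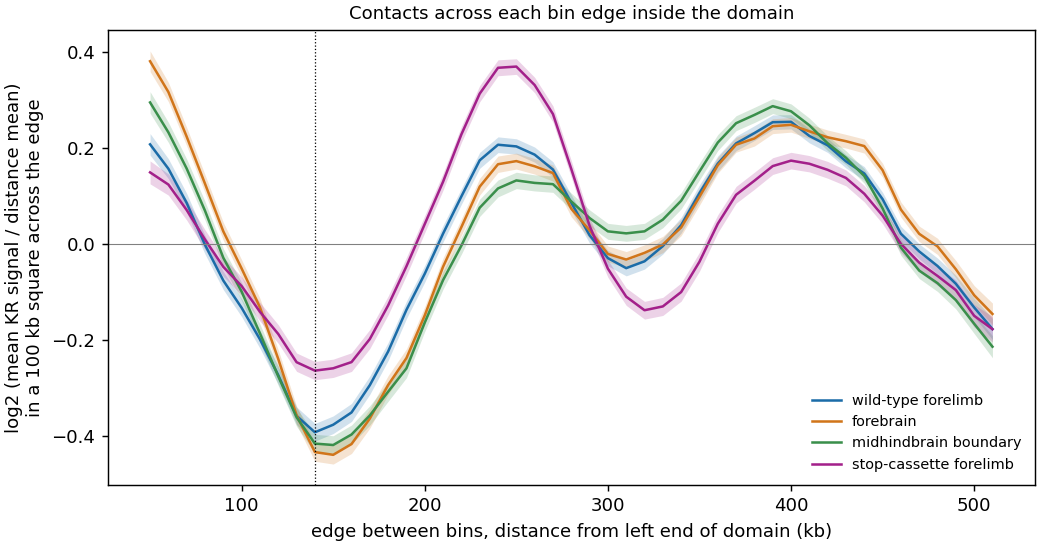
Log2 of mean KR signal over the distance mean in a 100 kb square across each bin edge, kept inside the domain, per map with 95% counting bands, against the distance of the edge from the left end in kb. All maps dip at the weak minimum (dotted line, -0.43 to -0.26), and the stop-cassette map has both the highest following maximum (0.37) and the lowest second dip (-0.14).

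Single bin pairs were compared with a two-sided exact binomial test on the raw contacts of 2 merged maps, fitted over the region and adjusted by Benjamini-Hochberg over all its tested bin pairs. The test compares the reads of 2 maps and not the conditions. All 1431 bin pairs of the domain were tested in each comparison, and pairs were called where the adjusted p was under 0.05 and the maps differed at least 2-fold. The wild-type forelimb map enters 3 of the 4 comparisons, which therefore share its error. None of the 1431 bin pairs was called for stop-cassette against wild-type forelimb, where the region had 0.0282% called. None was called for wild-type forelimb against forebrain (region 0.0198%), for wild-type forelimb against midhindbrain boundary (region 0.0621%), or for midhindbrain boundary against forebrain (region 0.0113%). At these background shares less than 1 call in 1431 is the average, so the zeros do not set the domain apart.

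Without the 2-fold requirement, the same exact binomial test gave an adjusted p under 0.05 for 5 bin pairs of stop-cassette against wild-type forelimb (region 0.079%). It gave 7 for wild-type forelimb against forebrain (region 0.345%), 5 for wild-type forelimb against midhindbrain boundary (region 0.624%) and 0 for midhindbrain boundary against forebrain (region 0.187%). As shares of the domain's bin pairs these counts were 0.349%, 0.489%, 0.349% and 0%. For stop-cassette against wild-type forelimb, 3 of the 5 pairs were higher in the mutant map and 2 were lower. An unadjusted p under 0.05 was reached by 238, 165, 171 and 108 bin pairs in the 4 comparisons, or 16.6%, 11.5%, 11.9% and 7.55% of the domain, where the region had 9.46%, 9.01%, 10.3% and 7.23%. Variation between maps exceeded counting error by factors of 1.51, 1.48, 1.59 and 1.31 in variance over the region. Once the variance was raised by these factors, no bin pair of the domain kept an adjusted p under 0.05.

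The 5 pairs of stop-cassette against wild-type forelimb are named because they are few, after their values were seen. The pair 122180001 with 122360001, 180 kb apart, had 249 contacts in the stop-cassette map and 459 in that of wild-type forelimb and a log2 ratio of -0.53 (exact binomial test, adjusted p = 0.014, or 0.50 with the raised variance). Its level was 0.894 in stop-cassette forelimb and 1.29, 1.35 and 1.35 in the wild-type forelimb, forebrain and midhindbrain boundary. The pair 122090001 with 122180001, 90 kb apart, had 502 and 411 contacts and a log2 ratio of 0.42 (exact binomial test, adjusted p = 0.028, or 0.68). The pairs 122140001 with 122170001 and 122130001 with 122160001, each 30 kb apart, had log2 ratios of 0.30 and 0.30. The fifth pair, 121940001 with 121970001, lay in the left part and had a log2 ratio of -0.33.

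Pooling bins into 8 segments of 70 kb, numbered from the left end, lowered the counting error and showed differences of modest size. None of the 36 segment pairs of the domain passed 1.2-fold in any comparison. Over the 444 segment pairs of the region the share was 3.15% for stop-cassette against wild-type forelimb, 3.83% for wild-type forelimb against forebrain, 4.95% for wild-type forelimb against midhindbrain boundary and 0.45% for midhindbrain boundary against forebrain. At these shares no more than a few of 36 pairs would pass on average, so the zeros do not set the domain apart. The SD of the log2 ratios in the domain was 0.12, 0.09, 0.09 and 0.05 in these comparisons, against 0.12, 0.12, 0.13 and 0.08 over the region. With raw counts, 11 of the 36 pairs passed 1.2-fold for stop-cassette against wild-type forelimb, all of them higher in the stop-cassette map (region 9.68%). Raw counts moved the median of the 36 log2 ratios from 0.02 to 0.16, while the median over the region was -0.002.

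Segment 4, bins 122120001 to 122190000, carried the widest range of ratios between the forelimb maps. Contacts within it had levels of 1.14 in the wild-type forelimb, 1.08 in the forebrain, 1.03 at the midhindbrain boundary and 1.34 in the stop-cassette map, over 10 bin pairs. The log2 ratio of stop-cassette over wild-type forelimb was 0.24 (0.20 to 0.28), and with raw counts it was 0.41. Between segments 4 and 7 the levels were 1.36, 1.45, 1.48 and 1.14, and between segments 4 and 8 they were 1.55, 1.74, 1.71 and 1.303. The stop-cassette map was the lowest in both, with log2 ratios to wild-type forelimb of -0.26 (-0.29 to -0.22) and -0.25 (-0.29 to -0.20). With raw counts these ratios were -0.19 and -0.25, so they kept their direction. For segments 4 and 8 wild-type forelimb also lay below forebrain, at -0.17 (-0.21 to -0.13), and below midhindbrain boundary, at -0.15 (-0.18 to -0.11). With raw counts these were smaller, at -0.07 and -0.05.

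Segment pairs across the weak minimum leaned the other way. Of these 12 pairs, 11 were higher in the mutant than in the wild-type forelimb map, 11 were higher in wild-type forelimb than in forebrain, and 11 were higher in wild-type forelimb than in midhindbrain boundary. Only 5 of 12 were higher in midhindbrain boundary than in forebrain. Over the whole block between the parts, the log2 ratio of stop-cassette over wild-type forelimb was 0.10 (0.09 to 0.12). For wild-type forelimb over forebrain it was 0.10 (0.08 to 0.11), and for wild-type forelimb over midhindbrain boundary 0.10 (0.09 to 0.12). It was -0.005 for midhindbrain boundary over forebrain (-0.021 to 0.011). With raw counts the first 3 ratios were 0.26, 0.14 and 0.16. Inside the left part wild-type forelimb was below forebrain, with a log2 ratio of -0.14 (-0.16 to -0.11), and below midhindbrain boundary, with a ratio of -0.06 (-0.09 to -0.04) that shrank to -0.03 with raw counts. The stop-cassette map was below wild-type forelimb there in KR signal, at -0.04 (-0.07 to -0.02), and above it in raw counts, at 0.24 (0.21 to 0.26). Inside the right part the stop-cassette map was below wild-type forelimb, with a log2 ratio of -0.05 (-0.06 to -0.04), a direction that turned to 0.02 with raw counts.

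**Figure D4:**
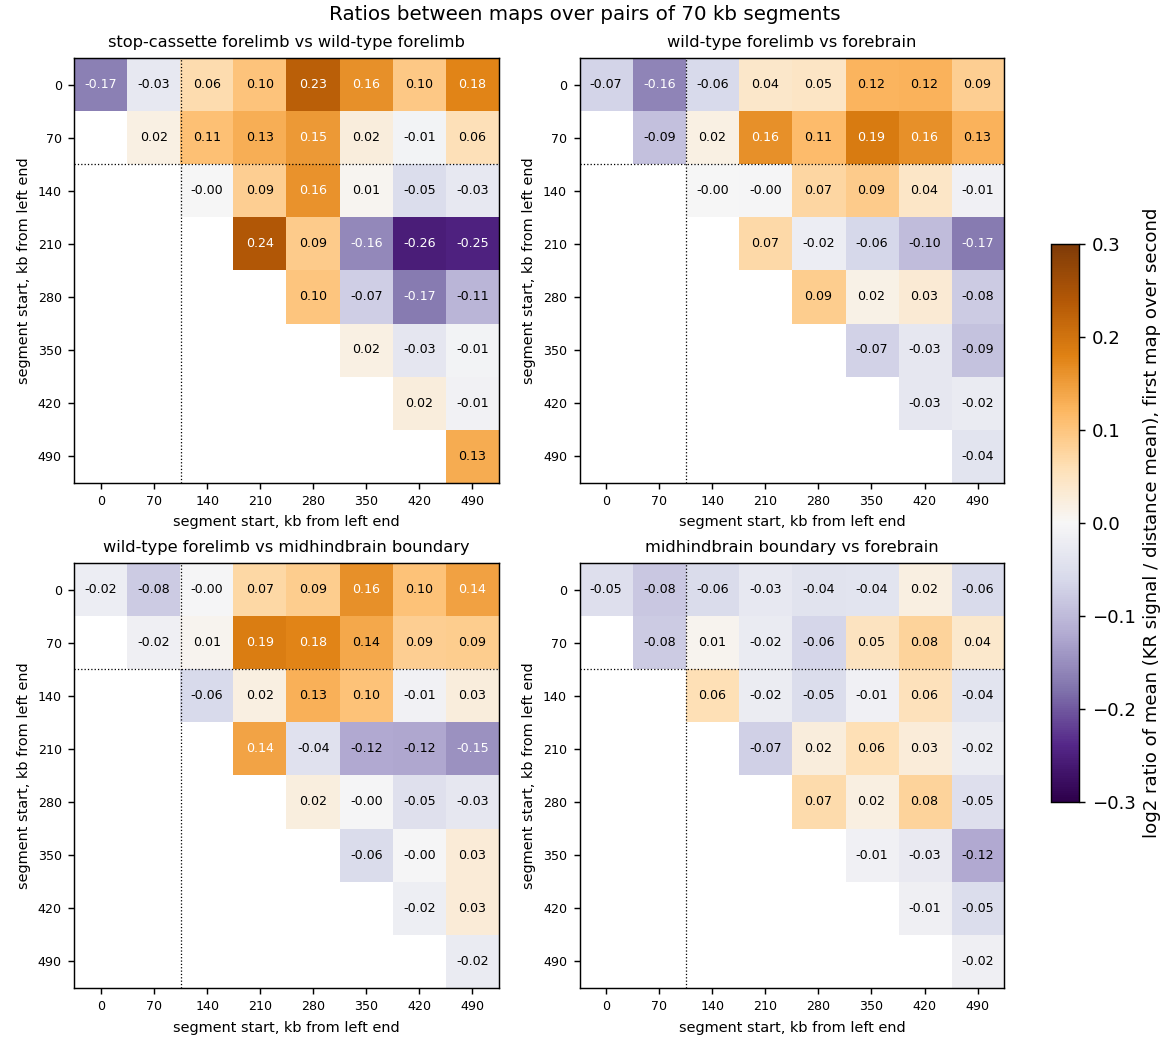
Log2 ratio of mean level (KR signal over the distance mean) between 2 maps for each pair of 70 kb segments of the domain, 1 panel per comparison, with axes in kb from the left end and dotted lines at the weak minimum. In the first panel, stop-cassette over wild-type forelimb, the highest value is 0.24 on the diagonal at 210 kb and the lowest -0.26 between the segments at 210 and 420 kb; the last panel, between the brain maps, stays between -0.12 and 0.08.

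Coverage of the domain's bins also differed between the maps. The share of a map's raw contacts that fell on a bin of the domain was a median of 1.08 times as high in the stop-cassette map as in that of wild-type forelimb, with 44 of 56 bins above 1 and a range of 0.911 to 1.31. The median was 1.11 left of the minimum and 1.06 right of it, against 0.987 over the bins outside the domain. For wild-type forelimb over forebrain and over midhindbrain boundary the domain's medians were 1.03 and 1.04, and for midhindbrain boundary over forebrain 0.992. Balancing removes such differences of whole bins whether they come from capture or from contacts, and their part in the ratios was not tested beyond the raw-count values given above.

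Over the 1431 bin pairs, the log2 levels of the domain correlated between maps with Pearson r of 0.922 for wild-type forelimb and forebrain, 0.918 for wild-type forelimb and midhindbrain boundary, 0.936 for the brain maps and 0.881 for the forelimb maps. The lowest values were those of the stop-cassette map with forebrain, 0.832, and with midhindbrain boundary, 0.819. That map merged 2 libraries and had the lowest median, 195 contacts per bin pair, and the part of depth in these values was not tested. Bin pairs share bins, baits and restriction sites between maps and are not independent, so these values are descriptions. In the left neighbour the forelimb maps correlated at 0.787 and in the En1 domain at 0.953.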

How the data were processed

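Capture Hi-C contacts of 11 libraries were used as 4 merged maps, 1 per group. The authors deposited a raw map of contact counts and a balanced map of KR contact signal per group, in 10 kb bins. Per the labels, the map names record merged replicates, HiCUP and a mapping quality of 30. Per the submitters' processing notes, Bowtie2 2.3.4.1, Juicer 1.7.6 and build mm9 were used; the balancing settings are not given in the sources used here. In each map the deposited KR signal was checked to be the count over a product of bin factors, which ranged from 0.577 to 1.75 in the domain. Balancing equalises bins, so a gain or loss by a whole bin is removed.

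Levels were KR signal over its mean at each distance in the map (Python 3.11.15, numpy 2.4.6, scipy 1.17.1, matplotlib 3.10.9). Counting intervals used the Poisson variance of the raw counts with fixed factors. The binomial test used bin pairs 30 kb to 1 Mb apart with at least 20 contacts over both maps, with the expected share set by distance and KR factors. Log2 ratios of single pairs used a prior count of 0.5, and the test was tested on simulated data. Named pairs were the 8 highest and 4 lowest at 50 kb or more, with at least 20 contacts (for the lowest, expected contacts) in each map, by mean log2 level over the maps, leaving out pairs within 2 bins on both axes of one taken, plus the corner pair. The members, named minimum and segments were chosen with earlier results of these data known.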

Additional observations from a re-analysis of the deposited data

How the results depend on the processing

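No paired analysis was possible because the replicates of each group were merged before deposit, and leaving out a library was not run for the same reason. Numbers are in the order wild-type forelimb, forebrain, midhindbrain boundary, stop-cassette forelimb where 4 are given, and the cause of a change was not tested.

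Without a fold threshold the counts of bin pairs were 5 for stop-cassette against wild-type forelimb, 7 for wild-type forelimb against forebrain and 5 for wild-type forelimb against midhindbrain boundary, and without KR factors the last count was 1; count minimums of 10 or 1 contacts, raised variance and 20 kb bins left every count at 0. With raw counts, 11 segment pairs passed 1.2-fold for stop-cassette against wild-type forelimb and 1 for wild-type forelimb against midhindbrain boundary; a threshold of 1.3-fold or segments of 80 kb left every count at 0.

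Across the weak minimum, the log2 level was -0.36, -0.37, -0.32 and -0.32 with a 50 kb square and -0.28, -0.34, -0.37 and -0.15 with a 200 kb square. With raw counts the wild-type forelimb value was -0.34, the forebrain value -0.41 and the stop-cassette value 0.0087, and with the distance median -0.41 in wild-type forelimb. The stop-cassette value exceeded wild-type forelimb by 0.13 to 0.34 under 5 of 6 settings. With the 50 kb square it did so by 0.04 (-0.01 to 0.09) and was level with midhindbrain boundary, at 0.002 (-0.047 to 0.052). The order of the wild-type maps changed with the square and with raw counts. The log2 mean level inside the domain was 0.32, 0.26, 0.24 and 0.43 with raw counts, 0.25, 0.25, 0.21 and 0.25 with the distance median, 0.21, 0.20, 0.19 and 0.22 at 50 kb or more, and 0.21, 0.20, 0.18 and 0.21 with the distance mean taken outside the domain.

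Raw-count and distance-median ratios of blocks and segment pairs were added after seeing the data. Raw counts changed the sign of 8 of the 36 segment ratios of stop-cassette over wild-type forelimb and the distance median of 4. Depth limits single bin pairs most: the corner pair rests on 31 to 42 contacts per map.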
